A study of Homo sapiens with 2 samples.

Results

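Integrins and the proteins that tie them to the actin cytoskeleton were followed by their transcripts in HuH6 cells, an established human hepatoblastoma line. One group was the parental line (HuH6_WT), and the other was the same line after CRISPR/Cas9 disruption of PIM3 (PIM3_KO), a serine/threonine kinase gene. Both were grown untreated in the same medium, and the labels do not say whether the edited cells were 1 clone. The genes were chosen by name: all integrin alpha and beta subunits plus 15 talin, kindlin, kinase and adaptor genes. They took up 40 of the 62571 rows of the deposited expression table, under 38 symbols. TLN2 and ZYX had 2 rows each, which left 36 symbols with 1 row. ITGA1, ITGB3 and PARVB occurred only in rows that join several genes and are given apart.

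Each group had 1 library of poly(A) RNA, so no replicate check exists for any difference below and neither p-values nor standard deviations are given. Loss of PIM3 and any other way in which the edited culture departed from its parent cannot be told apart. PIM3 itself stood at 34.2 FPKM (mapped fragments divided by transcript length and library size, so a level per length) in HuH6_WT and at 14.0 FPKM in PIM3_KO. The smallest values came in steps that imply normalisation totals of 28.3 M reads (HuH6_WT) and 22.2 M reads (PIM3_KO). The FPKM of all rows summed to 787250 in HuH6_WT and 1086211 in PIM3_KO. Scaling each library to an equal total (TPM) moved the median log2 ratio of all genes tested from 0.01 to -0.40. Ratios below are of FPKM unless TPM is named. Of the hepatoblastoma and hepatoblast markers, KRT8, KRT18, EPCAM, GPC3, FOXA2 and HNF4A were above 30 FPKM in both libraries, and DLK1 was listed at 0 in both. AFP differed widely, at 1.19 FPKM in HuH6_WT and 70.1 FPKM in PIM3_KO.

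Integrins are receptors made of 1 alpha and 1 beta subunit that bind matrix proteins outside the cell. Inside, talins and kindlins bind the beta subunit's tail and switch the receptor on, vinculin and tensins link it to actin, and the ILK complex and focal adhesion kinase (FAK, the product of PTK2) relay signals. A beta subunit needs an alpha partner to reach the surface, and ITGB1 is the most widely shared of them. Liver parenchymal cells attach to their matrix mainly through receptors that hold ITGB1.

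The receptor genes divided. ITGB1 was 2.90-fold lower in PIM3_KO, whereas ITGAE, ITGB4 and ITGB2 were higher. Of the 8 alpha genes with a row of their own whose products pair only with ITGB1, 5 were lower. ITGA10 and ITGA11, each with a mean below 1 FPKM, were higher, and ITGA8 was listed at 0 in both libraries. Over all genes tested, 49.0% had a ratio below 0. Of the adaptors, PTK2 was 2.15-fold lower and ILK 1.45-fold higher. Under TPM the log2 ratios of ILK and ITGB2 were only 0.07 and 0.08, against 0.63 for ITGAE and 0.56 for ITGB4. Of 36 genes with 1 row, 20 were lower and 13 higher in PIM3_KO, and 3 were listed at 0 in both libraries. The mean over both libraries reached 1 FPKM in 25 of the 36. Among these 25, 3 were at least 2-fold lower on the log2(FPKM + 1) scale, namely ITGB1, ITGA9 and PTK2, and 1 was at least 2-fold higher, ITGAE. By the same rule 4.59% of all 11253 genes tested lay at least 2-fold lower, and 6.89% lay at least 2-fold higher. Ratios below 0 were held by 18 of the 25 genes, against 49.0% of all genes tested, and their median log2 ratio was -0.48 against 0.01. The genes nearest to the 2-fold line were PTK2 at -1.08 and ITGAE at 1.08 beyond it, and ITGB4 at 0.95 and PARVA at -0.76 short of it.

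**Figure D1:**
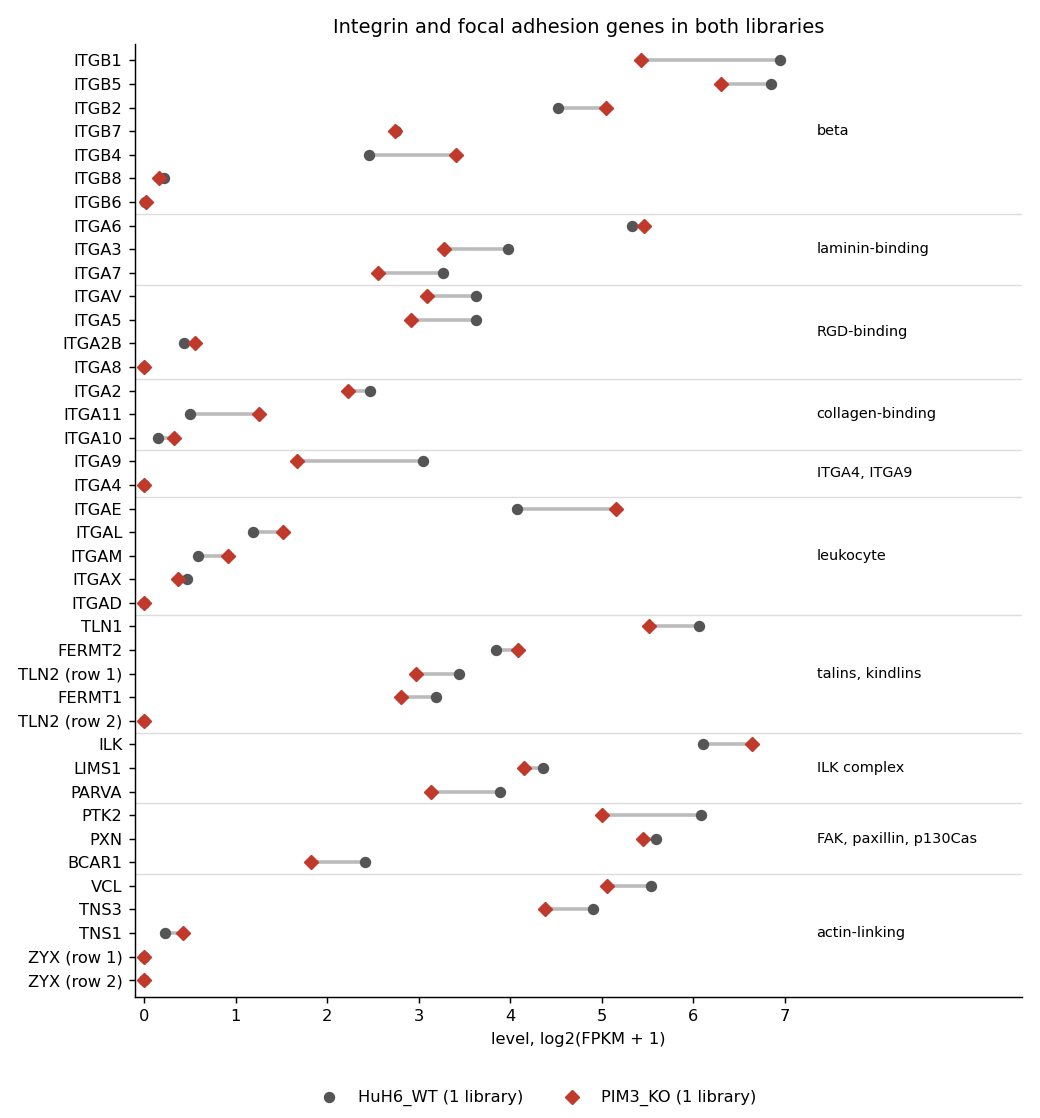
Levels of the integrin and focal adhesion genes, as log2(FPKM + 1), in HuH6_WT (grey circles) and PIM3_KO (red diamonds), 1 library each, grouped by role. The longest grey bars that run to a lower PIM3_KO value are those of ITGB1 and ITGA9, and the longest that run to a higher one are those of ITGAE and ITGB4; ITGA4, ITGA8, ITGAD, ZYX and a further row of TLN2 are listed at 0 in both libraries.

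Promoter sequences are shown for the beta subunit genes with the highest levels, ITGB1 and ITGB5, and for ITGAE, the member with the highest ratio on the log2(FPKM + 1) scale. They are RefSeq's, on GRCh38.p14, cover 250 bases before to 50 after the annotated start, and are written 5′ to 3′ on the gene's strand. Capitals mark matches, on either strand, to the TEAD motif GGAATG and the SP1 motif GGGCGG. The intervals are chr10:32958181-32958480, chr3:124901369-124901668 and chr17:3801139-3801438, all on the minus strand. The ITGB1 window lies inside the annotated gene interval given below, which starts further upstream.
ITGB1: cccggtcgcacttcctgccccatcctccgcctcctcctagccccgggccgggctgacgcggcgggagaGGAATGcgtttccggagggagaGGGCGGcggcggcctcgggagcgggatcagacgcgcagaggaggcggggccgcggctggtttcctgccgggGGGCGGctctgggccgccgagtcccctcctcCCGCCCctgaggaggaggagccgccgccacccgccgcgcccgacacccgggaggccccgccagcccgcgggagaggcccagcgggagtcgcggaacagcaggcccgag
ITGB5: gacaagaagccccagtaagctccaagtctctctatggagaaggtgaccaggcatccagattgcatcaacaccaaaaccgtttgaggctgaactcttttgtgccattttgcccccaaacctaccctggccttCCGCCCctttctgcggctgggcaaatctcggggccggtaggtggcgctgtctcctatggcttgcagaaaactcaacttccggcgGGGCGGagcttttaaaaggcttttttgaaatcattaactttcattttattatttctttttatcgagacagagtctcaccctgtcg
ITGAE: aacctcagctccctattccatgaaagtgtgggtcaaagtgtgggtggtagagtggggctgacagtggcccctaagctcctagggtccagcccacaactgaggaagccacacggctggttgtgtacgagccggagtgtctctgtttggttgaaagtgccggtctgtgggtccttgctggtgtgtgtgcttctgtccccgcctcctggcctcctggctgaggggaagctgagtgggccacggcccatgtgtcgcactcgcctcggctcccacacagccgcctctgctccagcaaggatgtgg

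The ITGB1 window held 1 TEAD and 3 SP1 matches, the ITGB5 window 2 SP1 matches, and the ITGAE window none of either. GC content was 78.3% in the ITGB1 window, 49.7% in that of ITGB5 and 61.3% in that of ITGAE. RefSeq's table had a promoter for 16 of the 25 genes. Of these, 11 held the SP1 motif, against 71.4% of 7776 tested coding genes, and 3 held the TEAD motif (ITGA5, ITGB1 and VCL), against 856 of those 7776 genes. The AP-1 motif TGANTCA was found in BCAR1 and ITGA5 (4.22% of tested coding genes), and the SRF motif known as the CArG box in none of the 16 (1.12%). A match describes the letters in this window and no binding was measured.

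The beta subunits came first in level. ITGB1 (ENSG00000150093.18, chromosome 10, positions 32900319 to 33005792 of GRCh38) stood at 122 FPKM in HuH6_WT and at 42.1 FPKM in PIM3_KO. The PIM3_KO level was 34.4% of the parental one, and its exact 95% binomial interval, based on roughly 12409 and 3353 reads, ran from 33.1% to 35.8%. Such counting intervals, here and below, leave out all variation between cultures. Its log2 ratio of -1.52 was matched or undercut by 1.24% of all genes tested. It was at least 2-fold lower under all settings tried, from -1.38 after correction for transcript length to -1.97 under TPM. The 40 nearest tested coding genes on chromosome 10 had a median log2 ratio of -0.11. The transcript ITGB1-DT, annotated across an ITGB1 exon on the other strand, measured 0.0577 and 0.107 FPKM.

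ITGB5, the partner of ITGAV in the vitronectin receptor, measured 115 and 77.9 FPKM, a log2 ratio of -0.55. ITGB1 thus ranked first and ITGB5 second in HuH6_WT, and the order was the reverse in PIM3_KO. Around ITGB5, on chromosome 3, the 40 nearest tested coding genes had a median log2 ratio of -0.17. The other tested coding genes of that chromosome had a median of -0.29, and the part of this in the ITGB5 ratio was not tested. ITGB2, the beta subunit of leukocyte integrins, measured 21.9 and 32.1 FPKM, a log2 ratio of 0.53 that became 0.08 under TPM. ITGB7, which pairs with ITGA4 and ITGAE, measured 5.75 and 5.71 FPKM. Its counting interval, 85.7% to 114% of the parental level, includes equality. ITGB4, the laminin-receptor subunit of hemidesmosomes, measured 4.48 and 9.62 FPKM. The PIM3_KO level of ITGB4 was 215% of the parental one, with a counting interval of 196% to 236%, and its log2 ratio was 0.95. ITGB8 stayed at 0.159 and 0.121 FPKM, and the ITGB6 values of 0.00892 and 0.0114 FPKM correspond to about 1.13 reads in each library, below the limit of 3 reads.

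Shares within a library do not depend on how libraries are scaled. ITGB1 made up 45.4% of the summed FPKM of the beta subunits in HuH6_WT and 25.1% in PIM3_KO. ITGB5 made up 42.6% and 46.5%, ITGB2 8.15% and 19.2%, and ITGB4 1.67% and 5.74%. Sums, unlike shares, do depend on that scaling, and those given here leave out ITGA1 and ITGB3. The beta sum was 269 FPKM in HuH6_WT and 168 FPKM in PIM3_KO. The alpha sum was nearly equal at 116.2 and 116.4 FPKM, although its members were not. ITGA6 made up 33.9% and 37.1% of it, ITGAE 13.6% and 29.7%, ITGA3 12.7% and 7.47%, and ITGA9 6.27% and 1.87%. The ratio of ITGA6 to ITGB1 was 0.323 in HuH6_WT and 1.02 in PIM3_KO, and that of ITGB5 to ITGB1 was 0.937 and 1.85.

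**Figure D2:**
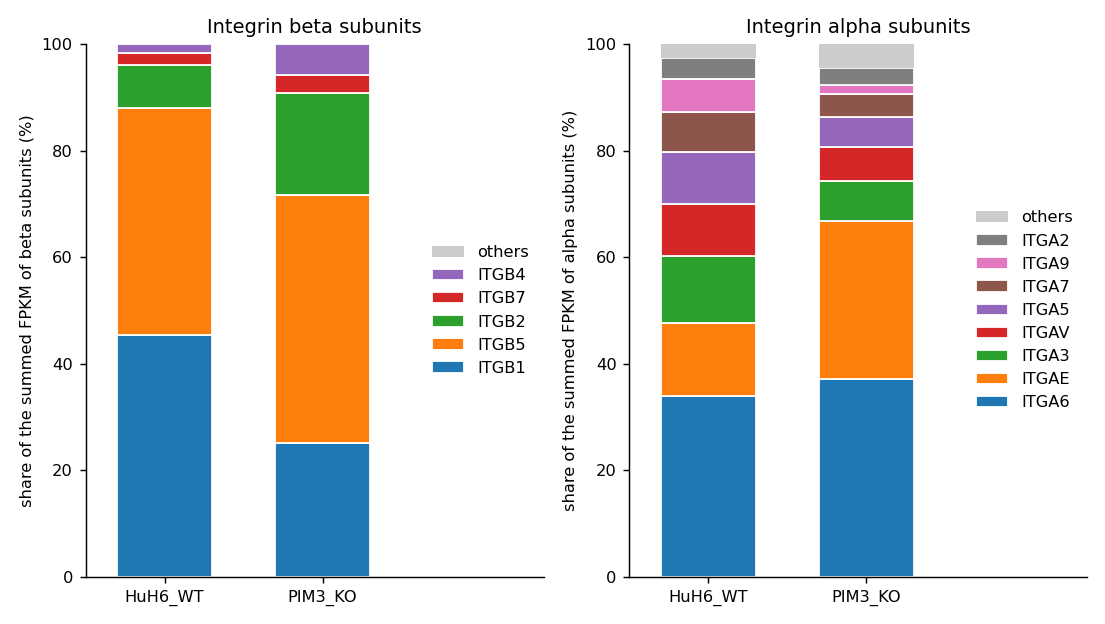
Share of each subunit gene, in percent, of the summed FPKM of the integrin beta (left) and alpha (right) subunits in HuH6_WT and PIM3_KO, 1 library each, with ITGA1 and ITGB3 left out because they have no row of their own. The ITGB1 share is 45.4% in HuH6_WT and 25.1% in PIM3_KO, and the ITGAE share 13.6% and 29.7%.

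Among the laminin-binding alpha subunits, ITGA3 and ITGA7 were lower in PIM3_KO and ITGA6 was not. ITGA6, which pairs with ITGB1 or ITGB4, measured 39.4 and 43.2 FPKM and led the alpha genes in both libraries. Its log2 ratio of 0.13 changed sign under TPM, to -0.33. ITGA3, which pairs with ITGB1, measured 14.7 and 8.70 FPKM, a log2 ratio of -0.70. ITGA7, best known from muscle, measured 8.59 and 4.89 FPKM, also at -0.70.

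Both RGD-binding alpha subunits whose mean reached 1 FPKM were lower. Subunits of this class recognise a short motif in fibronectin and vitronectin. ITGA5, the classical fibronectin receptor subunit, measured 11.3 and 6.54 FPKM, 57.8% of the parental level with a counting interval of 52.5% to 63.6%. ITGAV, which joins several beta subunits, measured 11.4 and 7.50 FPKM. The ratio of ITGAV to ITGB5 was 0.0994 in HuH6_WT and 0.0963 in PIM3_KO. ITGA2B, the platelet subunit, stayed at 0.355 and 0.469 FPKM, and ITGA8 was listed at 0 in both libraries.

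ITGA9, whose product binds tenascin and other ligands together with ITGB1, was the member with the largest fold below the parental level, and the second lowest after ITGB1 on the log2(FPKM + 1) scale. The gene (ENSG00000144668.11, chromosome 3, positions 37452115 to 37823514) measured 7.29 and 2.18 FPKM, a log2 ratio of -1.38 and a 3.35-fold lower level. About 1588 and 372 estimated reads gave a counting interval of 26.6% to 33.5% of the parental level. Genes around it were also below 0, with a median of -0.27 over the 40 nearest tested coding genes and -0.29 over the other tested coding genes of chromosome 3; the part of this regional shift in the ITGA9 ratio was not tested. ITGA9-AS1, an antisense gene that shares exon sequence with it, measured 2.50 and 1.54 FPKM. ITGA4, related to ITGA9, was listed at 0 in both.

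The collagen-binding subunits with a row of their own were low. ITGA1, also of this class, could be read only jointly with PELO, at 15.6 FPKM in HuH6_WT and 29.4 FPKM in PIM3_KO. ITGA2 measured 4.55 and 3.68 FPKM, a log2 ratio of -0.24 that became 0.00 after correction for transcript length. ITGA11 measured 0.417 and 1.39 FPKM, a 3.33-fold higher level in PIM3_KO from about 44.4 and 116 estimated reads, but its mean stayed below 1 FPKM. ITGA10 measured 0.109 and 0.258 FPKM, from about 15.6 and 29.0 estimated reads. Over the 8 alpha genes of the table whose products pair only with ITGB1 (ITGA2, ITGA3, ITGA5, ITGA7, ITGA8, ITGA9, ITGA10 and ITGA11), the summed level was 47.0 FPKM in HuH6_WT and 27.6 FPKM in PIM3_KO, 58.8% of the parental sum. ITGA1, which also pairs only with ITGB1, is missing from this sum because its row is joined with PELO. The sum amounted to 0.385 times the ITGB1 level in HuH6_WT and 0.657 times in PIM3_KO, so ITGB1 was lower by a larger factor than these partners together.

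Of the leukocyte alpha subunit genes, ITGAE, ITGAL and ITGAM were higher in PIM3_KO and ITGAX was lower. ITGAE (ENSG00000083457.11, chromosome 17, positions 3714628 to 3801243), known from T cells in epithelia where it binds E-cadherin, measured 15.9 and 34.6 FPKM. The PIM3_KO level was 218% of the parental one, with a counting interval of 205% to 232% on some 1643 and 2810 reads, and the log2 ratio was 1.08. A ratio this high or higher was held by 5.69% of all genes tested, and it was 0.63 under TPM and 1.22 after length correction. HASPIN, a kinase gene annotated within ITGAE on the other strand, measured 5.12 and 3.98 FPKM, lower where ITGAE was higher. ITGAL, the partner of ITGB2, measured 1.29 and 1.87 FPKM, and the ratio of ITGAL to ITGB2 was 0.0588 and 0.0581. ITGAM (0.501 and 0.891 FPKM) and ITGAX (0.387 and 0.296 FPKM) stayed below 1 FPKM, and ITGAD was listed at 0.

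Leukocyte and platelet markers were low beside ITGAE and ITGB2, though LYZ and CD14 exceeded ITGAL in both libraries. The sum over 9 rows of 8 markers was 6.73 FPKM in HuH6_WT and 11.0 FPKM in PIM3_KO, and 7 of the 9 rows were below 1 FPKM in both libraries. LYZ measured 4.46 and 8.21 FPKM and CD14 1.51 and 2.27 FPKM, while the myeloid receptor gene CSF1R measured 0.740 and 0.262 FPKM. CD3E, a T cell gene, had no signal in the parental library (listed at 0) against 0.248 FPKM in the knockout library, and MPO stood at 0.0126 FPKM in the parental library and was listed at 0 in the knockout one. The pan-leukocyte gene PTPRC measured 0.00773 FPKM in HuH6_WT in 1 of its 2 rows and was otherwise listed at 0, as were PF4 and GP9 in both libraries. The part of other cells in the ITGAE and ITGB2 values was not tested, and in bulk RNA more cells of a type and more RNA per cell cannot be told apart.

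Of the integrin activators, TLN1 was lower and FERMT2 was not. TLN1, the main talin outside muscle and brain, measured 65.9 and 44.9 FPKM, 68.1% of the parental level with a counting interval of 66.3% to 69.9%. TLN2 had a row at 9.83 and 6.83 FPKM and another listed at 0, so it was kept out of the counts; its log2 ratio was -0.47. The kindlin genes differed: the epithelial FERMT1 measured 8.15 and 5.99 FPKM, and the widespread FERMT2 13.4 and 15.9 FPKM. The ratio of FERMT1 to FERMT2 was 0.607 in HuH6_WT and 0.376 in PIM3_KO. FERMT2 had a log2 ratio of 0.23, which became -0.20 under TPM.

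The ILK complex joins a pseudokinase (ILK), the LIM-domain protein PINCH (LIMS1) and a parvin (PARVA or PARVB), and its proteins are known to stabilise one another. Their transcripts differed in direction. ILK measured 68.2 and 99.0 FPKM, 145% of the parental level with a counting interval of 139% to 152%. The ILK log2 ratio of 0.53 became 0.07 under TPM. PARVA measured 13.9 and 7.80 FPKM, 56.3% with an interval of 52.9% to 59.8%. LIMS1 lay between them at 19.6 and 16.8 FPKM. The ratio of ILK to PARVA was 4.92 in HuH6_WT and 12.7 in PIM3_KO. ILK overlaps exons of TAF10 on the other strand, so its value is less certain. The joined locus of TAF10 and TPP1 measured 171 and 181 FPKM. Other abundant members with a coding gene on the opposite strand across part of an exon were VCL (AP3M1, 34.7 and 19.9 FPKM) and TLN1 (CREB3, 18.7 and 29.4 FPKM). So were ITGB7 (ZNF740, 18.1 and 5.38 FPKM) and ITGA7 (METTL7B, 15.6 and 18.9 FPKM). ITGA7 also overlaps BLOC1S1, whose joined locus with RDH5 and AC009779.3 measured 193 and 332 FPKM, higher in PIM3_KO where ITGA7 was lower. The kit kept strand, but whether the counting used it is not known. The joined locus of PARVB and PARVG measured 45.1 and 56.5 FPKM and does not separate these genes. Near PARVA, the 40 closest tested coding genes had a median log2 ratio of -0.33, against 0.11 for chromosome 11 as a whole, and the part of this in its value was not tested.

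Of the signalling genes, PTK2 stood lowest. It measured 67.0 and 31.2 FPKM, 46.6% of the parental level with a counting interval of 44.8% to 48.5% on some 9019 and 3297 reads. A log2 ratio as low as its -1.08 was held by 3.71% of all genes tested, and the value was -0.86 after length correction and -1.53 under TPM. PXN, the paxillin scaffold to which FAK docks, measured 47.4 and 42.7 FPKM, so the ratio of PTK2 to PXN was 1.41 in HuH6_WT and 0.731 in PIM3_KO. BCAR1, the Cas scaffold phosphorylated by FAK and SRC, measured 4.32 and 2.55 FPKM. PXN shares exon sequence with PXN-AS1 on the other strand, which measured 19.1 and 34.1 FPKM.

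Of the actin-linking genes, VCL and TNS3 were lower by like amounts. VCL, which encodes vinculin, measured 45.4 and 32.3 FPKM, and TNS3, a tensin, 29.0 and 19.9 FPKM. Their log2 ratios were -0.48 and -0.52, close to the -0.54 of TLN1, and the ratio of VCL to TLN1 was 0.689 and 0.719. TNS1 was low but higher in PIM3_KO, at 0.170 and 0.345 FPKM from about 50.5 and 80.3 estimated reads. ZYX (zyxin) was listed at 0 in both libraries in each of its 2 rows. EPHA1, which overlaps it, also had 2 rows, listed at 0 as well, so the zyxin value says nothing of its expression. Loci that join other genes were ITGA1 with PELO, at 15.6 and 29.4 FPKM, and ITGB3 with EFCAB13 and AC068234.1, at 0.405 and 0.264 FPKM.

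**Figure D3:**
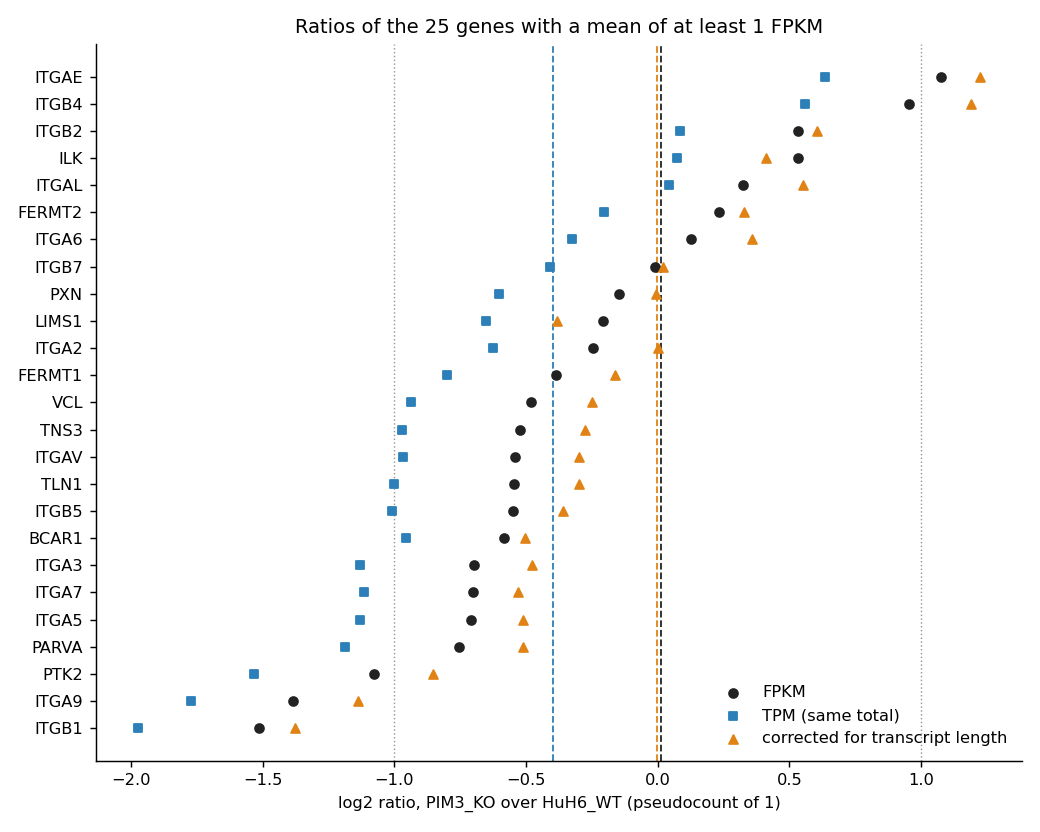
Log2 ratios, PIM3_KO over HuH6_WT, of the 25 genes whose mean reached 1 FPKM, from FPKM (circles), after rescaling to the same total (squares, TPM) and after correction for transcript length (triangles). Dashed lines are the medians of all genes tested (0.01 for FPKM, -0.40 for TPM) and of coding genes after length correction (0.00), and dotted lines mark 2-fold; ITGB1 lies beyond 2-fold by all 3 measures.

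Scaling and transcript length both bear on these ratios. Under TPM, 20 of the 25 genes were below 0, as were 74.2% of all genes, and 9 were at least 2-fold lower, against 14.5% of all genes. None of the 25 was at least 2-fold higher under TPM, against 2.73% of all genes. Their median was then -0.94, against -0.40 for all genes tested. The annotated transcripts of the 25 genes were long, with a median of 4888 bp against 3135 bp for tested coding genes, and longer transcripts had lower ratios in these libraries. Across the 25 genes, Pearson's r of the log2 ratio with log2 length was -0.32 and Spearman's rank correlation -0.29. Across 9691 coding genes they were -0.36 and -0.38. These correlations are over genes of the same pair of libraries and carry no test. After the fitted length trend was subtracted, 16 of 25 were below 0, against 50.1% of coding genes. The median was -0.28, against 0.00. ITGB1 and ITGA9 stayed at least 2-fold lower (3.76% of coding genes), while PTK2 did not, and ITGAE and ITGB4 were at least 2-fold higher (4.36%).

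**Figure D4:**
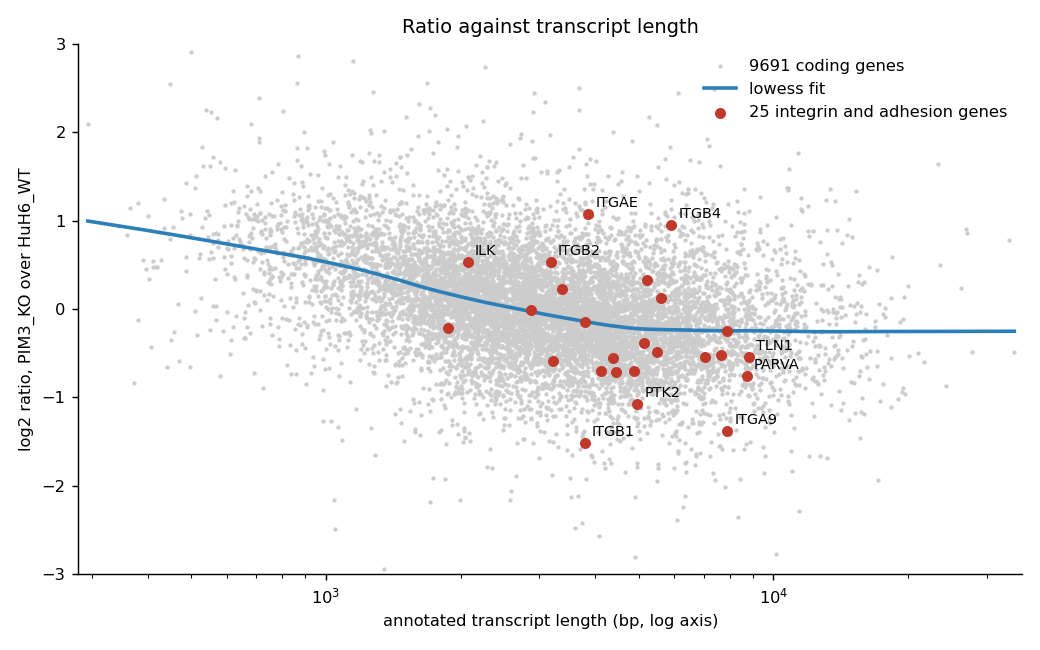
Log2 ratio of FPKM + 1, PIM3_KO over HuH6_WT, against annotated transcript length in bp (log axis) for 9691 coding genes (grey; 13 lie beyond the vertical axis limits), with the lowess fit (blue) and the 25 integrin and adhesion genes (red). The blue curve is lower for longer transcripts, and ITGB1, ITGA9 and PTK2 lie below it while ITGAE and ITGB4 lie above.

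Genes that work beside the integrins were counted by the same rule. Over all genes tested, 49.0% had a ratio below 0, 4.59% were at least 2-fold lower and 6.89% at least 2-fold higher. Of the 46 other adhesion adaptors and signalling genes whose mean reached 1 FPKM, 31 were lower and 15 higher, 4 of them at least 2-fold lower and 1 at least 2-fold higher. ENAH, an actin-filament elongation factor of the Ena/VASP family, measured 46.5 and 13.7 FPKM, and SVIL (supervillin) 12.5 and 3.63 FPKM. The remaining genes at least 2-fold lower, named after their values were seen, were LPP (12.6 and 5.29 FPKM) and RAPGEF1 (28.4 and 13.7 FPKM). LIMS2, the PINCH paralogue of LIMS1, measured 8.57 and 19.0 FPKM, and ITGB1BP1, whose product binds the ITGB1 tail and limits its activation, 75.5 and 152 FPKM. Over the whole list the log2 ratio had a median of -0.17, or -0.02 after length correction.

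Of 22 measured integrin ligands, 15 had negative and 7 positive ratios, with 2 at least 2-fold lower and 0 at least 2-fold higher. The shares over all genes tested were 49.0% below 0, 4.59% at least 2-fold lower and 6.89% at least 2-fold higher. THBS1, the matrix protein thrombospondin, measured 23.0 and 4.93 FPKM, and the growth factor gene TGFB2 2.72 and 0.0788 FPKM. LAMB3, a chain of the laminin that ITGA6 and ITGB4 bind, measured 10.7 and 21.3 FPKM, and CCN2, a matricellular protein, 7.97 and 16.8 FPKM. The median was -0.22, or -0.05 after length correction. Of 13 measured membrane partners of integrins, 10 had positive ratios, with a median of 0.28. After length correction 8 were positive and the median was 0.11. LGALS3 (galectin) measured 105 and 354 FPKM and the tetraspanin CD63 1372 and 2422 FPKM. CD47, a partner of beta subunits and receptor of thrombospondin, measured 3.40 and 0.397 FPKM, and the tetraspanin TSPAN4 49.4 and 48.0 FPKM. Under TPM 10 of these 13 were negative, against 74.2% of all genes, and their median was -0.18, against -0.40.

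Genes of actomyosin and its regulators were evenly divided, with 12 of 24 negative, against 49.0% of all genes tested. Of the 24, 2 were at least 2-fold lower (4.59% of all genes tested), and the median was 0.01. MYH9, the heavy chain of the main nonmuscle myosin, measured 185 and 62.7 FPKM, a log2 ratio of -1.55 close to that of ITGB1, and the calponin CNN3 measured 237 and 111 FPKM. The GTPase gene RAC1 measured 179 and 354 FPKM and ROCK1, a kinase that promotes contraction, 10.5 and 18.7 FPKM. Cadherin junction and desmosome genes were mostly lower, 10 of 12, against the same 49.0%. Of the 12, 2 were at least 2-fold lower, against the same 4.59%, and the median was -0.51, or -0.36 after length correction. CTNNB1, which encodes beta-catenin, measured 273 and 118 FPKM and the desmosomal plaque gene DSP 159 and 71.4 FPKM. NECTIN2 measured 124 and 178 FPKM and the plakophilin PKP3 35.0 and 48.3 FPKM. Fibroblast markers summed to 10.3 and 10.6 FPKM over 6 genes, among them COL1A1 at 1.49 and 1.20 FPKM, COL1A2 at 3.59 and 3.60 FPKM and PDGFRB at 5.12 and 5.77 FPKM, with THY1 listed at 0 in both libraries. Endothelial markers summed to 1.98 and 1.34 FPKM over 5 genes, with CDH5 and KDR listed at 0 in both.

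**Figure D5:**
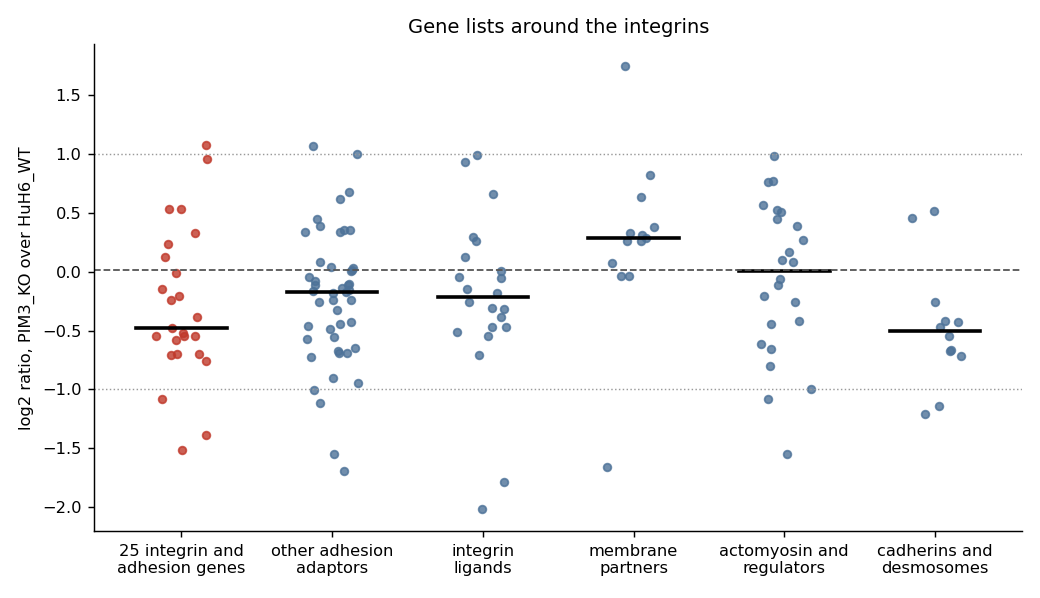
Log2 ratios, PIM3_KO over HuH6_WT, of the 25 integrin and adhesion genes (red) and of 5 further gene lists (blue), for genes whose mean reached 1 FPKM; black bars are list medians, the dashed line is the median of all genes tested (0.01) and dotted lines mark 2-fold. The medians of the integrin and adhesion genes (-0.48) and of the cadherin and desmosome genes (-0.51) are the lowest of the 6.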

How the data were processed

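Poly(A) RNA was made into directional libraries and read as single-end reads, 1 library per group, per the labels' protocols. Alignment with STAR 2.7.3a, quantification tools of Cufflinks 2.2.1 and the build GRCh38 are named in the submitters' processing notes. The sources used here do not give the annotation release, the strand setting or any filter. Each library's FPKM column is used as deposited by the authors.

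Counts were restricted to 53139 symbols that occur in a single row and in no joined row. Libraries were compared by the log2 ratio of FPKM + 1, PIM3_KO over HuH6_WT; it understates the ratios of weakly expressed genes. A gene was tested if its mean over both libraries reached 1 FPKM and was counted at 2-fold. With 1 library per group no test was run. Members, lists and settings were chosen with earlier results of these data known. The text names every member, and of each pathway list the genes with the 2 highest and 2 lowest ratios. Cell type markers are given mainly by their sums, and 1 leukocyte marker fixed at the start is not reported here.

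Lengths, positions and overlaps came from GENCODE release 29 on GRCh38, with 1 transcript per gene, the longest principal one for coding genes. Some symbols in the table are newer than this release. The length trend was a lowess fit (fraction 0.3, statsmodels 0.14.6) over 9691 coding genes. Among genes with 1 exon and 1 transcript, 96.4% (HuH6_WT) and 96.6% (PIM3_KO) of values under 20 reads were whole reads to within 0.05. Reads of other genes are approximate estimates from length less 200 bp, and exact 95% binomial intervals cover counting error only. The code was tested on simulated data.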

Additional observations from a re-analysis of the deposited data

How the results depend on the processing

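No paired analysis was possible because each group had 1 library, so none was left out either. Of the 25 genes whose mean reached 1 FPKM, 16 had a negative and 5 a positive log2 ratio under all settings in which they were counted; FERMT2 and ITGA6 turned negative under TPM, and ITGA2 and ITGB7 turned positive after length correction. The filters on low values and the counting of joined loci leave a gene's own ratio as it is, so its sign could not differ there. Of the 5 positive genes, ILK, ITGB2 and ITGAL were at only 0.07, 0.08 and 0.04 under TPM. TPM moved 24 of the 25 by more than their counting interval, and length correction 20. Counts and medians follow, with members first. With a pseudocount of 0.1, 2 members were at least 2-fold higher and 3 lower, with a median of -0.49. Of all 11253 genes, 1031 were then higher and 812 lower. With a pseudocount of 5, 0 members were at least 2-fold higher and 1 lower, with a median of -0.30, and 399 genes were higher and 172 lower. With no filter on low values the medians were -0.073 for members and 0.00 for all genes. At a mean of at least 5 FPKM the median of all genes was 0.042. Under TPM, 0 members were at least 2-fold higher and 9 lower, with a median of -0.94, while 311 genes were higher and 1652 lower, with a median of -0.40. Centring gave medians of -0.50 and 0.00. Length correction gave 2 members higher and a median of -0.28, with 423 genes higher and a median of -0.0022. Counting TLN2 and the joined loci of ITGA1 and PARVB as members, an alternative chosen after seeing the data, gave a median of -0.43. Depth limits ITGB6, ITGA10, ITGB8, ITGA2B and ITGAX, and ratios of genes under 1 FPKM are not firm.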
